A study of Mus musculus with 12 samples.

Results

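The small leucine-rich proteoglycans are a family of secreted matrix proteins built around a curved leucine-rich repeat core, and 7 of their genes, Dcn, Bgn, Aspn, Lum, Fmod, Prelp and Ogn, were followed across cultured fetal mouse kidneys. The genes were taken by name from the family, with earlier results of these data known. Every probe set whose only annotated gene was one of them was used. This gave 17 of the 22690 probe sets on the array, and 7 of the 12393 genes tested. Kidneys with activated beta-catenin, the nuclear effector of canonical Wnt signalling, were compared with wildtype kidneys, with 6 arrays of each genotype. The activated cultures are labelled as bearing tumors and the wildtype cultures as normal, and both are of strain C57BL/6. In both groups the mothers carried embryos of 10.5 days post coitum when they were given tamoxifen into the peritoneum (2 mg for each 40 g of weight), and kidneys taken at that age were cultured on permeable supports in a defined medium for 3 to 4 days. The allele that activates beta-catenin, the Cre driver and the cells in which it acts are not given in the sources used here, and neither is the number of kidneys or animals behind a sample, so p-values measure only the spread between these samples.

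Decorin (Dcn), biglycan (Bgn) and asporin (Aspn) form class I of the family, lumican (Lum), fibromodulin (Fmod) and Prelp belong to class II, and osteoglycin (Ogn) to class III. They bind fibrillar collagens and set the width and spacing of collagen fibrils, and several also bind TGF-beta and other growth factors in the matrix. Fibroblasts and other mesenchymal cells are their main source, and in the kidney decorin and biglycan are known from the interstitium, where both accumulate in fibrosis.

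Numbers in the sample titles split the arrays into a higher and a lower run, each with 3 activated (4 to 6 and 1 to 3) and 3 wildtype arrays (likewise 4 to 6 and 1 to 3). The labels do not state what they mark. The first principal component of all genes held 24.7% of the variance and separated the runs, so each gene is given by run. Values are array intensities as log2(intensity + 16) after quantile normalisation, and a difference is called where its limma adjusted p, corrected over all 12393 genes, is below 0.05. The brightest of 27 probe sets for bacterial control transcripts read 5.45 on this scale, which serves as a background level. Activated 2, in the lower run, stood apart in the 5' to 3' log2 ratio of the Gapdh control probe sets, at 0.07 against -2.61 to -1.06 on the other 11 arrays. The Wnt target Apcdd1, as a check of the labels, was higher in activated kidneys of both runs, by 1.99 (limma adjusted p = 0.00668) with the run as a term. Another 4 Wnt targets were listed, of which Axin2 rose in activated kidneys of the lower run, by 1.78 (limma adjusted p = 0.00379), and none of the 4 was called in the other genotype fits. The check was weaker for the higher run. Over these 5 targets the median activated minus wildtype difference was 0.37 there, against 2.02 for the lower run. All 5 differences were smaller in the higher run, and limma called 1 of these changes. In activated kidneys Apcdd1 fell by 1.25, Axin2 by 1.61 and Sp5 by 1.79 in the higher run relative to the lower run (limma adjusted p = 0.000174, 0.000529 and 0.0104), and in wildtype kidneys Apcdd1 rose by 0.58 (0.0379).

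Among the 7 genes, 5 were matched by gene identifier in RefSeq's table of promoter windows (assembly GRCm38.p6, 250 bases before to 50 after the annotated start). Those of 3 genes are shown, each 5' to 3' on its gene's strand: that of Bgn, which differed with genotype and run, and those of Aspn and Ogn, near neighbours on chromosome 13 that differed with run in activated kidneys. Capitals mark the letters CTTTGA, the core of the Tcf/Lef motif, in Bgn, and TATAAA, the TATA box, on either strand in Aspn and Ogn, where the reverse strand reads TTTATA.
Bgn, chrX:73483351-73483650, forward strand: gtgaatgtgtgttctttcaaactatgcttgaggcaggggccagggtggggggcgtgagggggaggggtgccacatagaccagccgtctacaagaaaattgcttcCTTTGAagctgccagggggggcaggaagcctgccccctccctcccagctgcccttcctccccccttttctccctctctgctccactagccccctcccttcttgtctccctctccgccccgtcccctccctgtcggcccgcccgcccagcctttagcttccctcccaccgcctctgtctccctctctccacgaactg
Aspn, chr13:49544193-49544492, forward strand: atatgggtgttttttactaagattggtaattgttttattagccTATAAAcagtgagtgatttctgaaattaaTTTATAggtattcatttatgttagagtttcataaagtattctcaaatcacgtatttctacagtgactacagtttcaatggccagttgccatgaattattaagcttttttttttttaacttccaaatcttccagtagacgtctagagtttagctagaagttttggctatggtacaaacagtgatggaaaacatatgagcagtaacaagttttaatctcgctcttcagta
Ogn, chr13:49607765-49608064, forward strand: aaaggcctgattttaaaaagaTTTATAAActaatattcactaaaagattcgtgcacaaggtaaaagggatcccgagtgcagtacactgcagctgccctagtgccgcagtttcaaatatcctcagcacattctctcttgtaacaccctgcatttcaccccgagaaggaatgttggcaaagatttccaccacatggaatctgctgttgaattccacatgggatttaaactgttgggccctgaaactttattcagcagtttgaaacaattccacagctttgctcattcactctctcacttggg
The windows differ in composition, with a GC content of 63.7% in Bgn, 31.0% in Aspn and 42.3% in Ogn, against a median of 52.7% over all windows in the table. CTTTGA, searched on both strands, occurs once in the Bgn window, on the forward strand at position -146 from the start, and in none of the other 4 windows. It is in 5257 of all 32851 windows in the table, or 16%. TATAAA occurs in Aspn at -207 on the forward and -178 on the reverse strand, and in Ogn at -229 on the reverse and -227 on the forward strand, where the matches overlap. It is in 13.6% of all windows. These matches describe letters and do not show that a factor binds there.

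Dcn and Bgn rose in activated kidneys once the run was included in the model, and no other gene of the 7 passed the test for genotype. Dcn was 1.64-fold and Bgn, on its brightest probe set, 1.57-fold higher, and for both every activated array lay above every wildtype array of its own run. In that fit 2 of the 7 genes were called, beside 0.105% of all genes tested, and 2 of 7 had groups that did not overlap in either run in the same direction, beside 1.26% of all genes. Because the 7 genes were chosen with earlier results of these data known, these shares are a description and no test of the family. Over the 7 genes the median log2 difference was 0.12, and 6 of them were positive, with a median of -0.01 over all genes. Without the run in the model, limma called 0 of 7 genes, beside 0.0242% of all genes, and in 0 of 7 did the 6 activated arrays stand clear of the 6 wildtype arrays, beside 0.5%. Without the run, 2 of the 7, Dcn and Bgn, had an unadjusted p under 0.05, beside 762 of all 12393 genes.

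**Figure D1:**
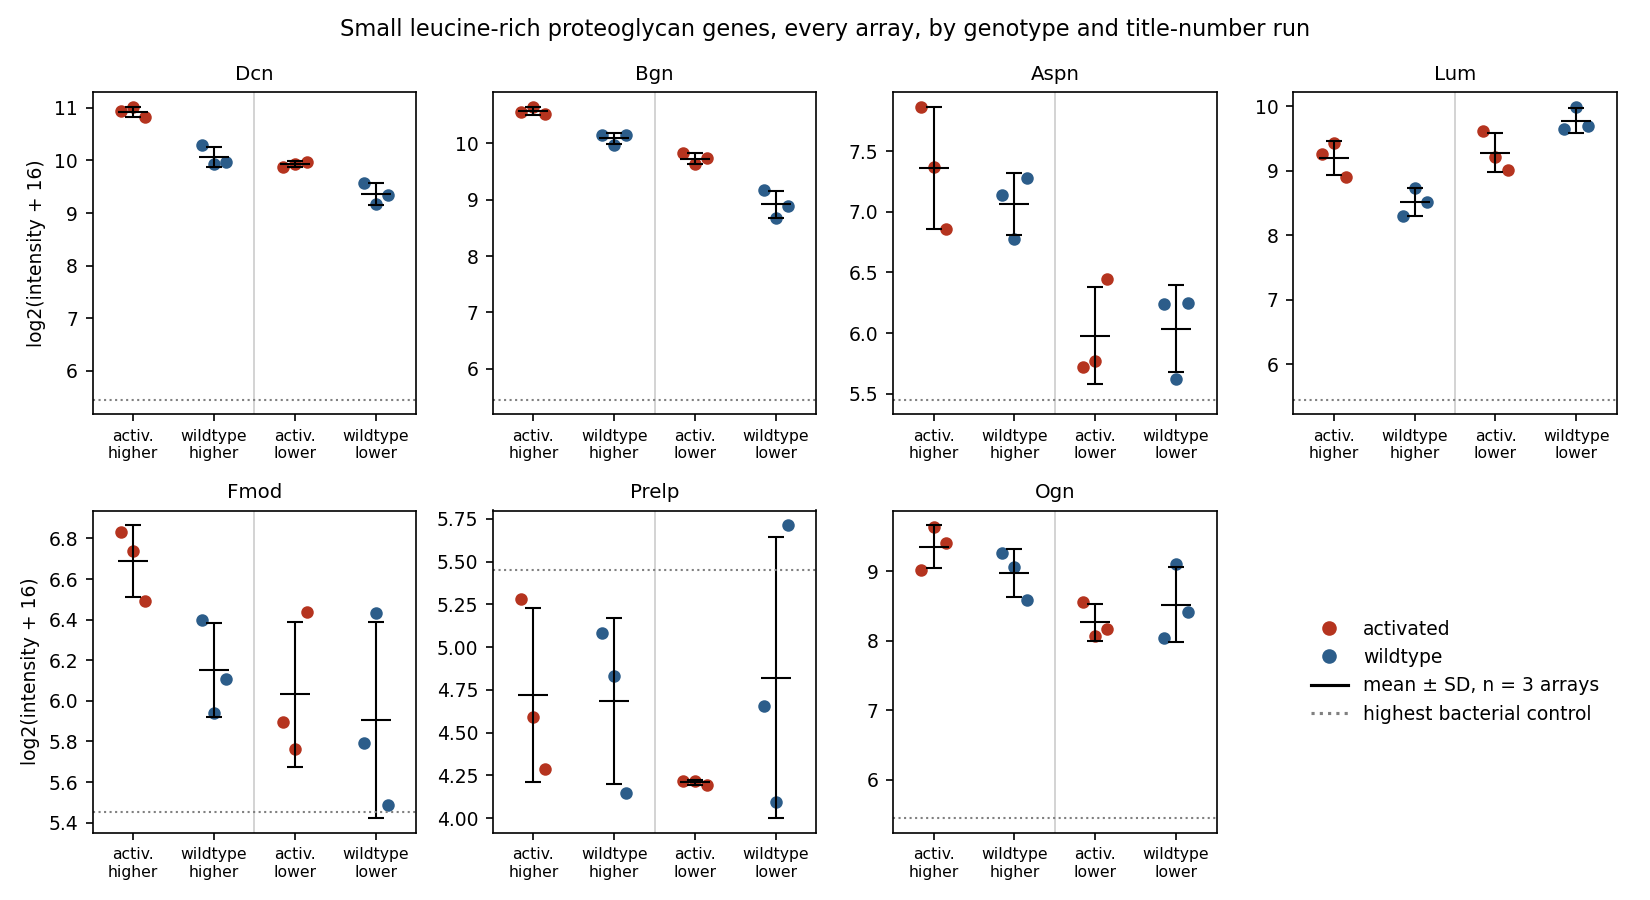
Each of the 7 genes on its brightest probe set, as log2(intensity + 16) after quantile normalisation, for the activated and wildtype arrays of the higher run (left pair) and of the lower run (right pair). Points are arrays, bars are the mean ± SD of 3 arrays, and the dotted line is the highest bacterial control value of 5.45. In Dcn and Bgn the activated points lie above the wildtype points of the same run, and Lum is ordered oppositely in the 2 runs.

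Dcn encodes decorin, which carries a single chondroitin or dermatan sulfate chain, binds collagen I and TGF-beta, and antagonises receptor tyrosine kinases such as Egfr and Met. In the higher run Dcn read 10.95, 11.01 and 10.82 in activated kidneys, against 10.29, 9.93 and 9.97 in wildtype kidneys. In the lower run it read 9.87, 9.94 and 9.98 in activated kidneys, against 9.57, 9.17 and 9.34 in wildtype kidneys. By group mean the order was activated, higher run (10.93), wildtype, higher run (10.07), activated, lower run (9.93) and wildtype, lower run (9.36), and only the middle pair overlapped. With the run as a term, activated minus wildtype was 0.72 (SE 0.09, 95% interval 0.52 to 0.92, limma adjusted p = 0.00668). Within the higher run the difference was 0.86 (SE 0.11, limma adjusted p = 0.146) and within the lower run 0.57 (SE 0.14, limma adjusted p = 0.178). The 3 arrays a group in a single run thus gave no call for Dcn, although the groups did not overlap in either run. In whole-organ RNA such as this, more cells that make decorin and more transcript per cell cannot be told apart. Leaving out activated 2 left the difference at 0.73 (limma adjusted p = 0.0161), and of the alternatives run only arrays centred on their medians, in place of quantile normalisation, put the adjusted p above the threshold, at 0.0558.

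Bgn encodes biglycan, the closest relative of decorin, which binds collagen, TGF-beta and BMP ligands and, when released from the matrix, signals through the Toll-like receptors Tlr2 and Tlr4. Its gene lies on the X chromosome. On its brightest probe set, 1448323_a_at, Bgn read 10.55, 10.65 and 10.53 in activated kidneys of the higher run, against 10.15, 9.98 and 10.14 in wildtype kidneys. In the lower run the values were 9.84, 9.63 and 9.73 in activated kidneys and 9.17, 8.68 and 8.90 in wildtype kidneys. The 4 groups did not overlap anywhere in their order, which was activated, higher run (mean 10.58), wildtype, higher run (10.09), activated, lower run (9.73) and wildtype, lower run (8.92). With the run as a term the difference was 0.65 (SE 0.10, 95% interval 0.45 to 0.86, limma adjusted p = 0.0135). It was 0.49 within the higher run (SE 0.09, limma adjusted p = 0.288) and 0.82 within the lower run (SE 0.16, limma adjusted p = 0.0693).

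The Bgn call held under fewer settings than that of Dcn, and neither of its other probe sets passed the test. On probe set 1416405_at the difference with the run as a term was 0.74 (limma adjusted p = 0.159 when it stood for the gene), and on 1437889_x_at 0.63 (limma adjusted p = 0.387). In the higher run 1437889_x_at read 9.86, 10.34 and 9.95 in activated kidneys, against 10.26, 9.47 and 10.14 in wildtype kidneys, so the groups overlapped there. The same probe set separated the groups of the lower run, at 9.08, 9.30 and 8.50 in activated kidneys, against 7.74, 7.52 and 8.13 in wildtype kidneys. The choice of these probe sets as alternatives was made after the values were seen. On the brightest probe set the adjusted p was above 0.05 without activated 1 (0.0597) and without activated 3 (0.0525), and without activated 2 it was 0.0296. It was also above 0.05 with arrays centred on their medians (0.0888), without a variance trend (0.0828) and with the mean of all probe sets (0.153).

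Because Bgn is X-linked, its values were set beside Xist, the RNA that coats the inactive X chromosome. Xist read between 10.90 and 11.90 on activated 4, activated 6, wildtype 2 and wildtype 5, and between 4.21 and 6.08 on the other arrays. The mean of the Y-linked genes was at most 4.48 on 3 of these 4 arrays and 7.54 on activated 4. These 3 arrays with low Y-linked signal, activated 6, wildtype 2 and wildtype 5, also had the lowest Bgn value of their groups, in activated kidneys at 10.53 against 10.55 on the next array. The autosomal genes Dcn (10.82, 9.17 and 9.93) and Aspn (6.86, 5.62 and 6.78) were likewise lowest of their groups on these arrays. The same 3 arrays also had the highest median intensities after activated 2 (74.0), at 68.6 on activated 6, 68.2 on wildtype 2 and 66.4 on wildtype 5. Their Gapdh 5' to 3' log2 ratios were -1.06, -1.13 and -2.09. The parts of sex and of array quality in these low values were not tested. With the Y-linked signal as a covariate beside the run, the activated minus wildtype difference was 0.62 for Bgn and 0.70 for Dcn, each with a limma adjusted p of 0.00619.

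**Figure D2:**
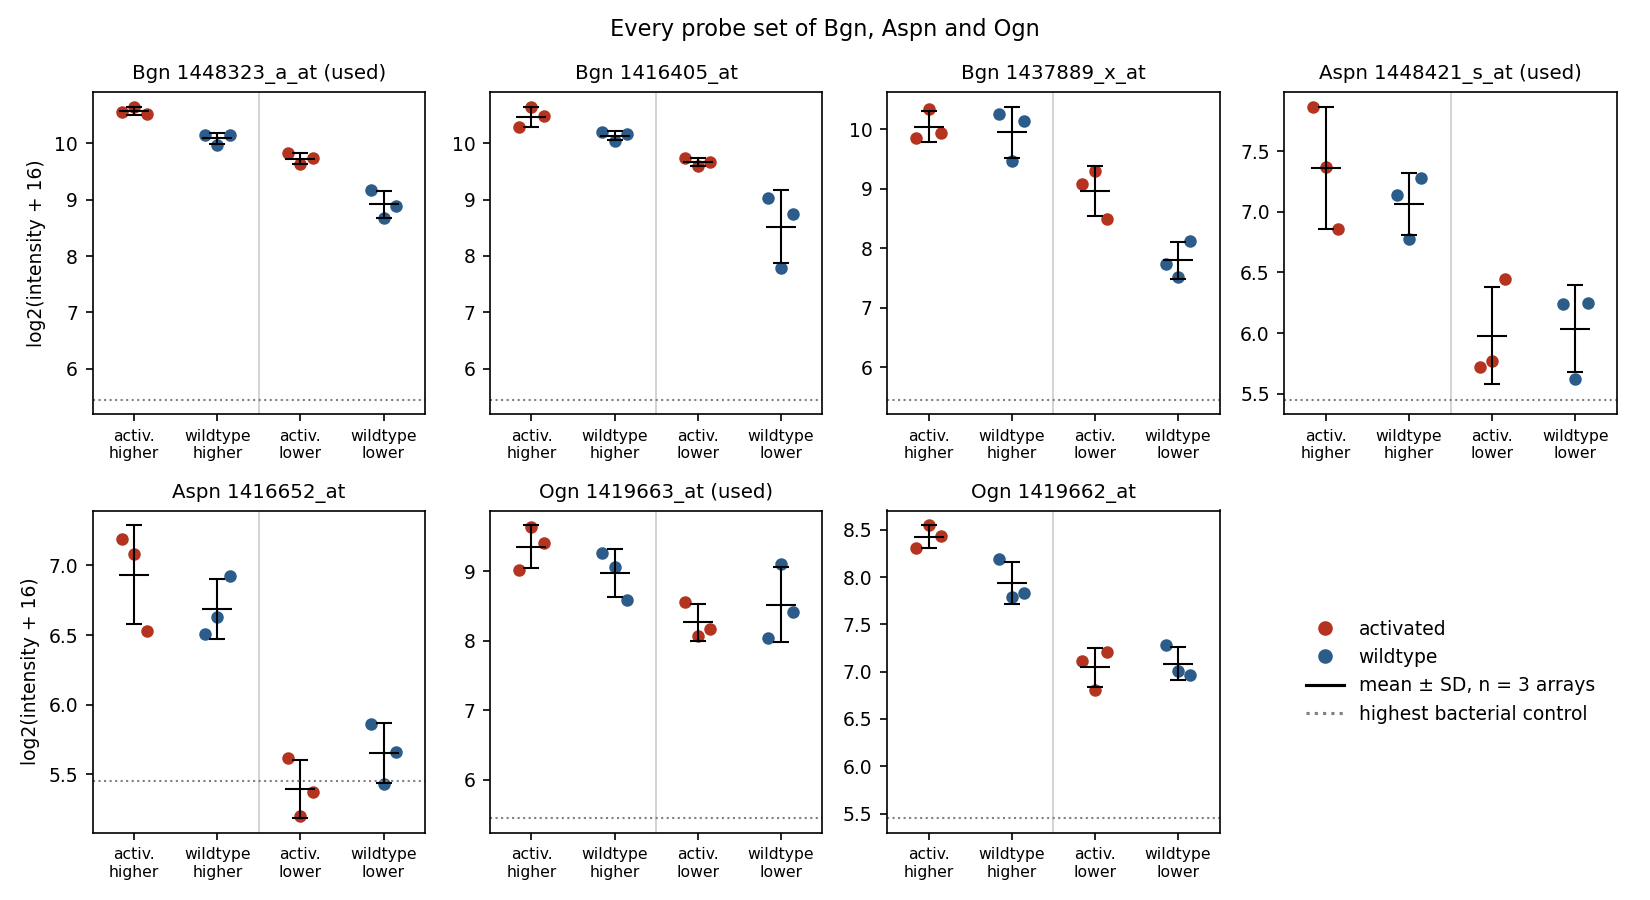
The 3 probe sets of Bgn and the 2 each of Aspn and Ogn, as log2(intensity + 16), by genotype and run, with the mean ± SD of 3 arrays and the highest bacterial control value as a dotted line. Bgn 1437889_x_at shows overlapping activated and wildtype points in the higher run, while all 3 Bgn probe sets separate them in the lower run.

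Aspn, the third class I gene, encodes asporin, which lacks a glycosaminoglycan chain and binds collagen and TGF-beta. It did not pass the test for genotype. Aspn read 7.86, 7.37 and 6.86 in activated kidneys of the higher run, against 7.14, 6.78 and 7.27 in wildtype kidneys, and 5.72, 5.77 and 6.44 in activated kidneys of the lower run, against 6.24, 5.62 and 6.25 in wildtype kidneys. The genotypes overlapped in both runs. With the run as a term, activated minus wildtype was 0.12 (95% interval -0.32 to 0.57, limma adjusted p = 0.915).

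Lum encodes lumican, a keratan sulfate proteoglycan best known for keeping collagen fibrils thin and evenly spaced in the cornea. It was the only one of the 7 genes whose genotypes separated completely in both runs but in opposite directions. Of all genes, 5.6% had activated arrays wholly above wildtype arrays in the higher run and 7.09% wholly below them in the lower run. The share of all genes that separated in opposite directions was not counted. In the higher run Lum read 9.26, 9.42 and 8.90 in activated kidneys, all above the 8.29, 8.73 and 8.51 of wildtype kidneys. In the lower run it read 9.61, 9.21 and 9.01 in activated kidneys, all below the 9.65, 9.99 and 9.69 of wildtype kidneys. By group mean the order was wildtype, lower run (9.78), activated, lower run (9.28), activated, higher run (9.19) and wildtype, higher run (8.51), and only the middle pair overlapped. The difference was 0.68 in the higher run (SE 0.17, limma adjusted p = 0.492) and -0.50 in the lower run (SE 0.18, limma adjusted p = 0.493). They differed from each other by 1.18, higher minus lower run (SE 0.26, 95% interval 0.63 to 1.74), and the limma adjusted p of this interaction was 0.0897, above the threshold. Among the alternatives run, the interaction was called only with the 5' to 3' control ratio as a covariate, with a limma adjusted p of 0.0489. In this test of the interaction 0 of the 7 genes were called, beside 0.331% of all genes. Among the 7, 1 gene, Lum, had an unadjusted p under 0.05 for the interaction, beside 757 of all 12393 genes. Over both runs, with the run as a term, Lum differed by 0.09 (limma adjusted p = 0.938).

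In wildtype kidneys Lum fell by 1.27 in the higher run relative to the lower run (SE 0.18, limma adjusted p = 0.000916). This made it 2.40-fold lower. In activated kidneys the runs differed in Lum by -0.08 (95% interval -0.48 to 0.31, limma adjusted p = 0.897). Dcn and Lum are adjacent genes on chromosome 10, followed by Kera and Epyc of the same family, and in wildtype kidneys they moved in opposite directions between the runs, Dcn up and Lum down. The mean log2 value of the 7 measured markers of renal stroma was ordered like Lum in both runs, although the single markers were mixed. The mean in the lower run was 9.51 to 9.70 in activated kidneys, against 9.89 to 10.07 in wildtype kidneys. The higher run gave 9.67 to 9.79 in activated and 9.59 to 9.62 in wildtype kidneys. In the higher run 4 of the 7 single differences were positive, with a median of 0.01, and in the lower run 2 of 7 were positive, with a median of -0.35. Of these markers 2 of 7 were called in the lower run, beside 0.597% of all genes, where in activated kidneys Foxd1 fell by 0.93 (limma adjusted p = 0.00734) and Aldh1a2 fell by 1.09 (limma adjusted p = 0.00454). Aldh1a2 was also called in the interaction, at 0.99 (limma adjusted p = 0.0222), and in wildtype kidneys Foxd1 fell by 0.65 and Aldh1a2 by 0.61 in the higher run relative to the lower run (limma adjusted p = 0.00161 and 0.00639). The part of stromal cell number in the Lum values was not tested.

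**Figure D3:**
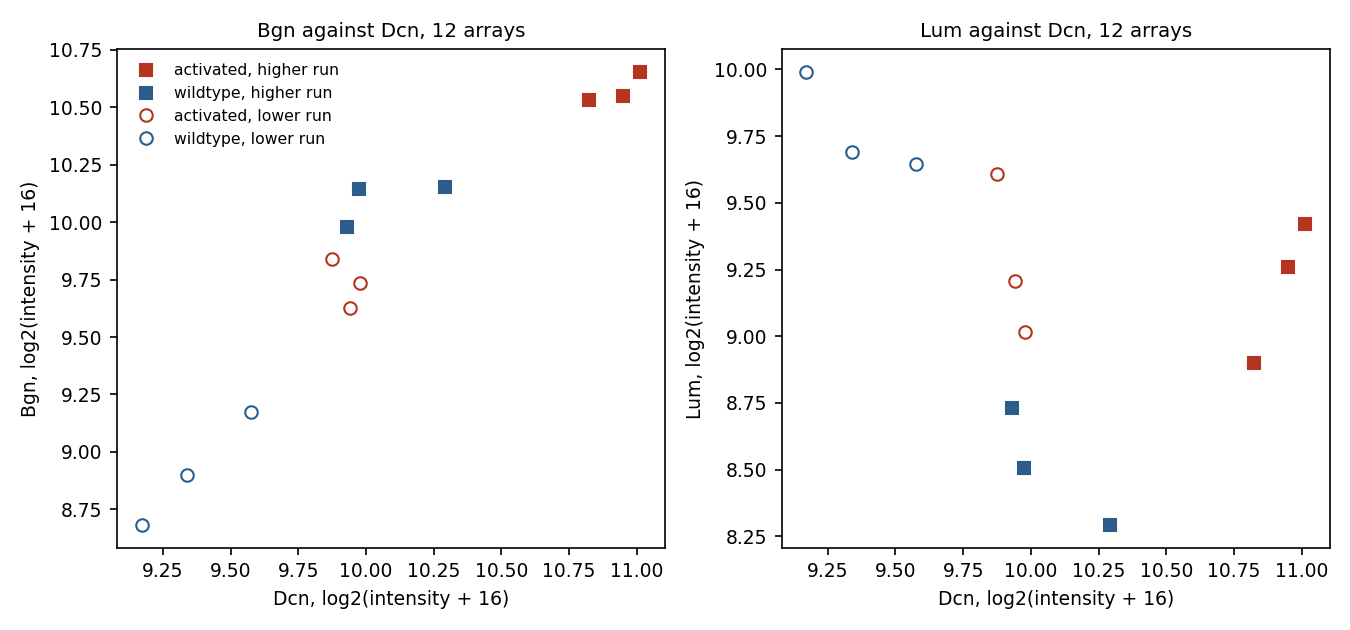
Bgn (left) and Lum (right) against Dcn on the 12 arrays, all as log2(intensity + 16), with filled squares for the higher run and open circles for the lower run. Bgn and Dcn lie along a common rising band, whereas wildtype Lum is lower in the higher run than in the lower run and activated Lum is at about the same level in both.

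The other class II genes were dim, with Fmod a little above the brightest bacterial control and Prelp mostly below it. Fmod encodes fibromodulin, which guides collagen cross-linking, and its brightest probe set, 1456084_x_at, read 6.83, 6.74 and 6.49 in activated kidneys of the higher run, against 6.40, 5.94 and 6.11 in wildtype kidneys. The groups of the higher run did not overlap, with a difference of 0.54 (SE 0.21, limma adjusted p = 0.774). Fmod in the lower run read 5.90, 5.76 and 6.44 in activated kidneys and 5.79, 6.43 and 5.49 in wildtype kidneys, and the groups overlapped. The other 5 Fmod probe sets averaged between 5.14 and 5.52 in either genotype, about the bacterial control level. Over both runs Fmod differed by 0.33 with the run as a term (95% interval -0.09 to 0.75, limma adjusted p = 0.683). Prelp, which anchors basement membranes to the connective tissue beneath, was above the highest bacterial control on 0 of 6 activated arrays and 1 of 6 wildtype arrays. Its difference of -0.29 (95% interval -0.87 to 0.29, limma adjusted p = 0.829) therefore compares values at background.

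Ogn encodes osteoglycin, also called mimecan, a class III member. It too did not pass the test for genotype. On its brightest probe set, 1419663_at, Ogn read 9.02, 9.63 and 9.40 in activated kidneys of the higher run, against 9.26, 9.05 and 8.59 in wildtype kidneys. The lower run gave 8.56, 8.07 and 8.17 in activated kidneys and 8.04, 9.10 and 8.41 in wildtype kidneys. The genotypes overlapped in both runs, and the difference with the run as a term was 0.07 (95% interval -0.35 to 0.48, limma adjusted p = 0.965). The second probe set, 1419662_at, did separate the genotypes of the higher run, at 8.30, 8.54 and 8.43 in activated kidneys, against 8.19, 7.79 and 7.83 in wildtype kidneys. That difference of 0.49 was not called when every probe set was tested (limma adjusted p = 0.752, unadjusted p = 0.0116), and over both runs the probe set differed by 0.23 (limma adjusted p = 0.762).

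Within a single run limma called none of the 7 genes for genotype. In the higher run 0 of 7 were called, beside 0.00807% of all genes. Yet 4 of 7 (Dcn, Bgn, Lum and Fmod) had activated arrays wholly above wildtype arrays, beside 5.6% of all genes (11.3% in either direction). These 4 also had an unadjusted p under 0.05, beside 788 of all 12393 genes. In the lower run 0 of 7 were called, beside 0.597%, and the groups did not overlap in 3 of 7, Dcn and Bgn above and Lum below wildtype, beside 12.5% of all genes. These 3 genes also had an unadjusted p under 0.05, beside 876 of all 12393 genes. The activation effect of Dcn differed between the runs by 0.29 (higher minus lower, limma adjusted p = 0.953) and that of Bgn by -0.33 (limma adjusted p = 0.920), so neither was shown to depend on the run. The other Bgn probe sets gave larger values, -0.81 on 1416405_at and -1.07 on 1437889_x_at (unadjusted p = 0.0266 and 0.00841), as did the mean of the 3, at -0.74, and none of these was called (limma adjusted p = 0.671, 0.405 and 0.440 when each stood for the gene).

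**Figure D4:**
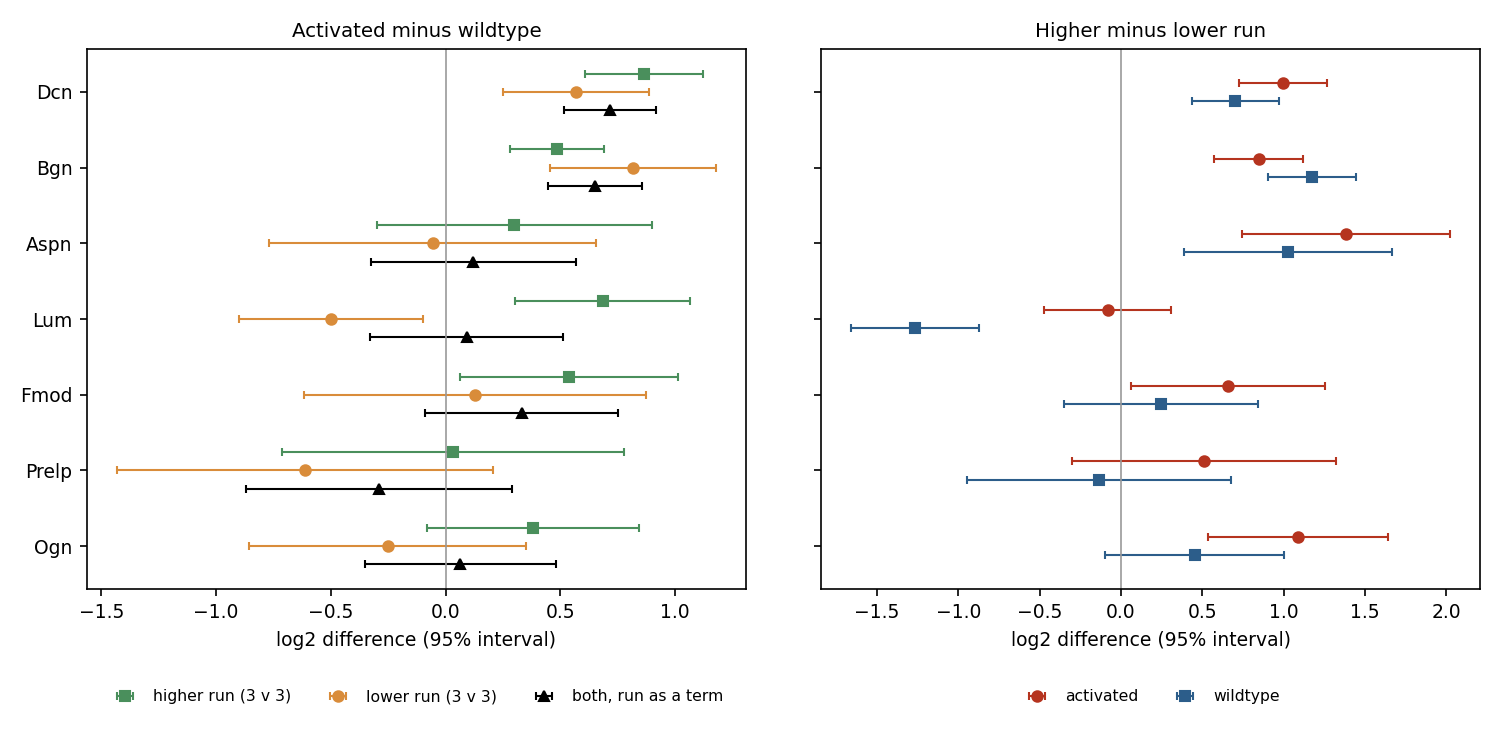
Log2 differences with 95% intervals for the 7 genes: activated minus wildtype (left) in the higher run, the lower run and both with the run as a term, and higher minus lower run (right) in activated and in wildtype kidneys. The genotype difference of Dcn and Bgn is above 0 in every fit shown, that of Lum changes sign between the runs, and the run difference of Lum is below 0 in wildtype kidneys with an interval that reaches across 0 in activated kidneys.

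More of the 7 genes were called between the runs than between the genotypes, and the same held over all genes. For genotype with the run as a term 0.105% of all genes were called. In activated kidneys 4 of the 7 genes rose in the higher run relative to the lower run, beside 4.91% of all genes called in either direction, and the runs did not overlap in 6 of 7, beside 20.1%. One of these 6 is Prelp, whose 6 activated values, 4.29 to 5.28 in the higher and 4.19 to 4.22 in the lower run, all lie below the highest bacterial control. Dcn rose by 1.00 (SE 0.13, limma adjusted p = 0.000287), Bgn by 0.85 (SE 0.13, limma adjusted p = 0.00109), Aspn by 1.38 (SE 0.30, limma adjusted p = 0.0141) and Ogn by 1.09 (SE 0.26, limma adjusted p = 0.0244). The median over the 7 genes was 0.85, with a median of 0.00 over all genes. The Aspn and Ogn calls were less secure, since leaving out any one of activated 1, 4 or 5 put the adjusted p of Aspn above the threshold (0.0545 to 0.0757) and leaving out activated 2, 3, 5 or 6 did so for Ogn (0.0685 to 0.122). Their second probe sets rose as well when every probe set was tested, Aspn 1416652_at by 1.54 (limma adjusted p = 0.00279) and Ogn 1419662_at by 1.38 (limma adjusted p = 0.000597).

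In wildtype kidneys 3 of the 7 genes were called between the runs, beside 5.16% of all genes, and the runs did not overlap in 4 of 7, beside 25.3%. Dcn rose by 0.70 (SE 0.13, limma adjusted p = 0.00419) and Bgn by 1.17 (SE 0.13, limma adjusted p = 7.11e-05), while Lum fell as given above. Aspn differed by 1.03 (SE 0.30, limma adjusted p = 0.0649) without passing the threshold in the model used here. It was called in 6 of the 9 alternatives that kept every array (limma adjusted p from 0.0168 to 0.0469) and in 0 of the 12 that left 1 out. Ogn differed by 0.45 (SE 0.26, limma adjusted p = 0.399). Aspn 1416652_at and Ogn 1419662_at did rise when every probe set was tested, by 1.03 (limma adjusted p = 0.0343) and 0.85 (limma adjusted p = 0.0172). The 4 groups share 1 estimate of spread in these fits, and the run cannot be told apart from whatever the title numbers stand for.

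Dcn and Bgn also followed each other from array to array. After each run's mean was subtracted, their values over the 12 arrays had a Pearson correlation of 0.88, the highest of the 21 pairs among the 7 genes. Lum and Ogn came next at 0.59 and Dcn and Fmod at 0.54, while the adjacent genes Dcn and Lum reached 0.20. Of all genes tested, the 5 most like Dcn by this measure were Prnp (0.91), Masp1 (0.91), Gask1b (0.90), Vegfc (0.90) and Bgn itself. Those most like Bgn were Apcdd1 (0.95), Vegfc (0.95), the Wnt inhibitor Nkd2 (0.95), Mark1 (0.95) and Tnfrsf19 (0.95). The arrays of both genotypes enter these correlations, so the points share the genotype difference as well as the array, and the values are given as a description.

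The other genes of the family gave no call. Of 10 further family genes listed, 5 were on the array with a single-gene probe set (Kera, Omd, Epyc, Optc and Chad), and none of these averaged above the highest bacterial control. With the run as a term limma called 0 of the 5, beside 0.105% of all genes. Of the 5, 1 had an unadjusted p under 0.05, beside 1089 of all 12393 genes. The smallest p values belonged to Optc at 0.53 (limma adjusted p = 0.334), Kera at 0.34 (0.584) and Omd at 0.27 (0.832). Omd lies between Aspn and Ogn on chromosome 13, and Optc lies next to Prelp and Fmod on chromosome 1.

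No enzyme that builds the sugar chains of these proteins was called for genotype over both runs. Of 18 measured genes of chondroitin and dermatan sulfate synthesis, limma called 0 with the run as a term, beside 0.105% of all genes. An unadjusted p under 0.05 was found for 1 of the 18, beside 1089 of all 12393 genes. The median difference was -0.04, beside -0.01 over all genes. Papss1, which makes the sulfate donor, differed by 0.43 (limma adjusted p = 0.370), the dermatan 4-O-sulfotransferase gene Chst14 by -0.32 (0.601) and the sulfate transporter gene Slc26a2 by -0.34 (0.643). Papss1 rose in activated kidneys of the lower run, by 0.88 (limma adjusted p = 0.0145), and its difference between runs was called as well, at -0.91 (limma adjusted p = 0.0428). Between the runs Papss1 fell by 0.79 in activated kidneys (limma adjusted p = 0.00136) and the chain-starting enzyme gene Csgalnact2 rose by 0.71 there (limma adjusted p = 0.0105), while Chst15 rose by 0.98 in wildtype kidneys (limma adjusted p = 0.0414). Of 6 measured genes of keratan sulfate synthesis, which serves Lum and Fmod, 0 were called in any of these fits, and with the run as a term 1 had an unadjusted p under 0.05, with Chst1 at 0.35 (limma adjusted p = 0.567), B3gnt2 at 0.14 (0.80) and B4galt4 at 0.13 (0.890).

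Matrix partners of the family were called between the runs and not between the genotypes. Calls between the runs were also the more frequent over all genes, at 4.91% in activated and 5.16% in wildtype kidneys, against 0.105% for genotype with the run as a term. In that genotype fit limma called 0 of 12 measured collagens and fibre proteins. Of the 12, 2 had an unadjusted p under 0.05, beside 1089 of all 12393 genes, 10 of 12 differences were positive and the median was 0.15. A pair of collagen VI chains, a ligand of decorin and biglycan, had the smallest p values, Col6a2 at 0.50 (SE 0.10, limma adjusted p = 0.0802) and Col6a1 at 0.48 (SE 0.12, limma adjusted p = 0.135), and fibronectin (Fn1) differed by 0.20 (limma adjusted p = 0.667). In activated kidneys 5 of the 12 rose in the higher run, beside 3.41% of all genes. These were elastin (Eln) by 1.79 (limma adjusted p = 0.000482), Col1a2 by 0.74 (0.00110), Col6a3 by 0.59 (0.0238), Col5a1 by 0.49 (0.0158) and Col3a1 by 0.47 (0.00318). In wildtype kidneys 1 of 12 rose, beside 3.53% of all genes, and it was again Eln, by 1.55 (limma adjusted p = 0.00148).

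Among 14 measured genes of the TGF-beta and BMP pathways, whose ligands decorin and biglycan bind, limma called 0 with the run as a term. The share of all genes called in that fit was 0.105%. Of the 14, 5 had an unadjusted p under 0.05, beside 1089 of all 12393 genes. Bmp4 differed by 1.25 (limma adjusted p = 0.120), Bmp2 by 1.12 (0.146) and the inhibitory Smad7 by 0.31 (0.442). Both BMP genes rose in activated kidneys of the lower run, Bmp4 by 2.06 (limma adjusted p = 0.0205) and Bmp2 by 1.87 (limma adjusted p = 0.0327). Between the runs the TGF-beta target Ccn2 rose by 2.75 in activated and 1.60 in wildtype kidneys (limma adjusted p = 5.96e-07 and 4.46e-05), and the receptor gene Tgfbr2 by 1.00 and 0.95 (0.000105 and 0.000152). In activated kidneys of the higher run Tgfb3 rose by 1.39 (limma adjusted p = 0.00104), Bmp4 fell by 1.59 (0.00454) and Bmp2 fell by 1.47 (0.00738), each relative to the lower run. The wildtype differences of these 3 genes were -0.03, 0.02 and 0.04 and were not called.

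Of 9 receptor genes for the family, limma called 0 with the run as a term, beside 0.105% of all genes. An unadjusted p under 0.05 was found for 1 of the 9, beside 1089 of all 12393 genes. Cd44 differed by 0.35 (limma adjusted p = 0.486), the endocytic receptor gene Lrp1 by -0.17 (0.723) and Egfr by 0.18 (0.799). Cd44 rose between the runs, by 1.22 in activated and 1.51 in wildtype kidneys (limma adjusted p = 0.00261 and 0.000573). Of 12 proteases and their helpers, 0 were called with the run as a term and 3 had an unadjusted p under 0.05, beside the same shares of all genes. Htra1, a secreted serine protease, had the smallest p, with a difference of 1.45 (limma adjusted p = 0.0674) and rose in activated kidneys of the lower run by 2.21 (limma adjusted p = 0.00712). Pcolce, the enhancer of procollagen processing, differed by 0.21 between genotypes (limma adjusted p = 0.142) and rose between the runs by 0.83 in activated and 0.91 in wildtype kidneys (limma adjusted p = 1.55e-05 and 6.60e-06), and Adamts1 rose by 0.48 and 0.92 (0.0421 and 0.000572). Mmp3 differed by -0.47 between genotypes (limma adjusted p = 0.509), and Mmp2 and Htra1 rose between the runs in wildtype kidneys, by 0.75 (limma adjusted p = 0.0157) and 1.11 (0.0407).

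No proteoglycan outside the family was called for genotype over both runs. Of 20 measured, limma called 0 with the run as a term, beside 0.105% of all genes. An unadjusted p under 0.05 was found for 7 of the 20, beside 1089 of all 12393 genes. In this list 11 of 20 differences were positive and the median was 0.03. Serglycin (Srgn), an intracellular proteoglycan of blood and endothelial cells, differed by 1.39 (limma adjusted p = 0.142), versican (Vcan) by -0.26 (0.338) and Spock3 by 0.56 (0.407). Srgn rose in activated kidneys of the lower run by 2.59 (limma adjusted p = 0.000557), and the effect differed between the runs, higher minus lower, by -2.41 (limma adjusted p = 0.00194). Between the runs in activated kidneys Vcan rose by 0.49 (limma adjusted p = 0.00545), while Sdc2 fell by 0.81 (0.0370) and Srgn fell by 1.74 (0.000133).

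Markers of the cells that could carry these transcripts were read on the same arrays. With the run as a term limma called 1 of 7 ureteric markers, beside 0.105% of all genes. This was Calb1, which fell by 0.75 (limma adjusted p = 0.0148). The same fit called 0 of the nephron, renal stroma, smooth muscle, cartilage, bone and tendon, skeletal muscle, endothelial, macrophage, mesothelial and adipocyte markers. In these lists 0 to 4 genes a list had an unadjusted p under 0.05, beside 1089 of all 12393 genes. All 7 smooth muscle markers differed in the positive direction with the run as a term, with a median of 0.38. Their summed intensity was 5412 to 7134 in activated kidneys of the higher run, against 4362 to 5244 in wildtype kidneys, and 2339 to 2742 in activated kidneys of the lower run, against 2477 to 2838 in wildtype kidneys. The sum, which the brightest markers lead, separated the genotypes in the higher run and overlapped in the lower run. Their mean log2 value did the opposite, at 7.48 to 7.79 in activated kidneys of the higher run, against 7.14 to 7.58 in wildtype kidneys, and 6.68 to 7.21 in activated kidneys of the lower run, against 6.23 to 6.67 in wildtype kidneys. Between the runs Acta2 rose by 1.40 in activated and 0.97 in wildtype kidneys, and Actg2 by 1.66 and 1.52 (limma adjusted p from 3.39e-06 to 0.00053). For renal stroma the summed intensity of 7 markers was 7920 to 8635 in activated kidneys of the higher run, against 7811 to 8027 in wildtype kidneys, and 7400 to 7625 in activated kidneys of the lower run, against 9158 to 10070 in wildtype kidneys. For the nephron lineage 7 markers summed to 2176 to 2483 and 995 to 1190 in activated kidneys of the higher and lower run, against 2539 to 2726 and 2004 to 2429 in wildtype kidneys of the same runs. Macrophage markers summed to 1327 to 1487 and 582 to 891 in activated kidneys, against 1098 to 1356 and 588 to 1007 in wildtype kidneys of the same runs. The macrophage sum was higher in the higher run like Dcn, Bgn, Aspn and Ogn, and so were the smooth muscle, nephron and mesothelium sums, in both genotypes. For mesothelium the 3 measured markers summed to 253 to 553 and 56.8 to 163 in activated kidneys, against 257 to 412 and 34.7 to 51.7 in wildtype kidneys, and only 1 of the 3 averaged above the bacterial controls. Skeletal muscle markers were at background, with 1 of 7 averaging above the highest bacterial control. Cartilage, bone and tendon markers summed to 644 to 761 and 899 to 1044 in activated kidneys, against 741 to 784 and 746 to 816 in wildtype kidneys, so the sum separated the genotypes in the lower run and not in the higher run. Their mean log2 value overlapped in the lower run, at 5.83 to 5.95 in activated and 5.84 to 5.85 in wildtype kidneys, and 6 of the 11 differences were positive there, with a median of 0.02. The 3 measured adipocyte markers summed to 702 to 1360 and 1723 to 2951 in activated kidneys, against 459 to 570 and 979.5 to 2548 in wildtype kidneys of the same runs. Endothelial markers summed to 253 to 300 and 200 to 367 in activated kidneys, against 154 to 226 and 209 to 381 in wildtype kidneys. Ureteric markers summed to 3543 to 4983 and 2613 to 3959 in activated kidneys, against 4623 to 5580 and 4480 to 5249 in wildtype kidneys. The endothelial sum separated the genotypes in the higher run only. The ureteric sum did so in the lower run only, where the mean log2 value overlapped.

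Single markers of these lists were called in further fits. For genotype, in activated kidneys of the lower run the nephron progenitor gene Six2 fell by 2.01 (limma adjusted p = 0.00155) and Calb1 fell by 1.02 (limma adjusted p = 0.00495), and the effect on Six2 differed between the runs, higher minus lower, by 1.72 (limma adjusted p = 0.0253). Calb1 was called without the run in the model as well (limma adjusted p = 0.0416). Between the runs in activated kidneys the progenitor genes Six2 and Cited1 rose by 1.84 and 2.47 (limma adjusted p = 0.000137 and 0.00134) and the macrophage genes Csf1r and Cd68 by 1.26 and 1.27 (0.00738 and 0.00317). In wildtype kidneys Cd68 rose by 0.94 (limma adjusted p = 0.0222), the podocyte gene Podxl by 1.29 (0.00512) and the mesothelial gene Msln by 1.14 (0.018). The keratin genes Krt8 and Krt19 rose in both genotypes, by 1.17 and 2.03 in activated and by 1.16 and 2.53 in wildtype kidneys (limma adjusted p from 0.00109 to 0.00525). Cartilage collagen Col9a1 and the adipocyte gene Fabp4 fell in both, by 1.60 and 1.25 in activated and by 1.01 and 1.60 in wildtype kidneys (limma adjusted p from 0.000599 to 0.0206). The part of any of these cell types in the differences of Dcn, Bgn, Aspn and Ogn was not tested.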

How the data were processed

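The authors deposited 1 intensity per probe set and array, on a linear scale. The deposited intensities had been scaled, since every array has the same 2% trimmed mean, 250.1. The software and genome build are not given in the sources used here. Per the labels' protocols, Trizol was used to prepare total RNA, and the labelling kit was one for Affymetrix 3' arrays.

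Intensities were taken as log2(intensity + 16), which understates the change of dim genes. Quantile normalisation was applied because array medians differed by up to 0.29. Of the probe sets, 20380 had 1 gene symbol and were used. Names came from the platform annotation, and 12369 of 12393 gene identifiers were found in RefSeq. A gene was represented by its probe set with the highest mean over the 12 arrays.

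Differences were fitted with limma 3.58.1 in R 4.3.3, with moderated variances that follow signal and Benjamini-Hochberg adjustment over all 12393 genes, at a threshold of 0.05. The models were genotype alone, genotype with run, each run separately, and 4 group means for the interaction and the run differences. The calculations were tested on simulated data. The number of arrays limits the precision. Replicate numbers only name arrays and pair none.

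The 7 genes and the other lists were chosen with earlier results of these data known. From each list of other genes the text names those called in any fit and up to 3 with the smallest p with the run as a term, and for Dcn and Bgn the 5 genes most correlated with each. The lists were other family genes, chondroitin and keratan sulfate enzymes, matrix partners, TGF-beta and BMP genes, receptors, proteases, other proteoglycans, Wnt targets and cell type markers. The correlated pairs of the 7 genes were named after their values were seen. Plots were drawn with matplotlib 3.10.9.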

Additional observations from a re-analysis of the deposited data

Results flagged for a closer look

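Lum separated the genotypes completely in both runs but in opposite directions, with activated above wildtype in the higher run and below it in the lower run. How many of all genes did so was not counted. Its activation effect differed by 1.18 between the runs, higher minus lower (SE 0.26). The difference was tested as an interaction and did not pass, with a limma adjusted p of 0.0897.

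Prelp had 1 activated array far from the other 5. Activated 4 read 5.28, the others 4.19 to 4.59, and the gap took up 0.635 of the whole range, just above the limit of Dixon's test for 6 samples. All 6 values lie below the highest bacterial control of 5.45, and chance flags about 1 in 20 such groups.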

How the results depend on the processing

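For genotype with the run as a term, the 2 genes called (Dcn and Bgn) became 0 with arrays centred on their medians, and 1 (Dcn) with the mean of all probe sets, with no variance trend, with Bgn on either of its other probe sets, and between 1 and 2 when any 1 array was left out. The cause was not tested, except that the probe set settings replace the Bgn values themselves. The difference kept its sign in all 21 alternatives chosen at the start for Dcn (0.67 to 0.78, called in 20) and for Bgn (0.58 to 0.69, called in 16). In the lower run array weights gave 1 called gene (Bgn, 0.85), in the interaction the 5' to 3' ratio as a covariate gave 1 (Lum), and between the runs 5 genes were called in wildtype kidneys with every probe set tested alone, against 3. Leaving out 1 array gave 2 to 4 called genes between the runs in activated kidneys. The other counts of called genes of the 7 stayed within 1.5 times.

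Counts over all genes moved more, and the cause was not tested. For genotype with the run as a term, 13 genes became 8 with median centring, 8 with the mean of probe sets, 7 with no trend, 52 with the 5' to 3' ratio and 4 to 20 with an array left out. Without the run, 3 became 1 with the mean of probe sets, 1 with no trend and 0 to 4 with an array left out. For the lower run 74 became 39 with no trend, 186 with array weights and 30 to 87 with an array left out. In the higher run 1 became 2 with median centring, 0 with the mean of probe sets, 0 with no trend and 0 to 1 with an array left out. For the interaction 41 became 18 with median centring, 24 with no trend, 88 with array weights, 89 with the 5' to 3' ratio and 16 to 47 with an array left out. Between the runs, wildtype, 640 became 413 with median centring, 1019 with array weights, 1169 with the 5' to 3' ratio and 361 to 917 with an array left out. In activated kidneys 609 became 1010 with array weights, 951 with the 5' to 3' ratio and 352 to 645 with an array left out.

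Differences that were not called changed sign when single arrays were left out. Over all 12 arrays they ranged from -0.117 to 0.311 for Aspn, -0.0774 to 0.262 for Lum and -0.1004 to 0.213 for Ogn. With the run as a term the ranges were -0.00966 to 0.214 for Aspn, -0.0235 to 0.217 for Lum and -0.0549 to 0.230 for Ogn. In the lower run they were -0.288 to 0.0710 for Aspn, -0.081 to 0.391 for Fmod and -0.492 to 0.0393 for Ogn. Prelp ranged from -0.247 to 0.251 in the higher run, where the mean of its probe sets gave -0.0592, and from -0.498 to 0.311 between the runs in wildtype kidneys, and Lum from -0.213 to 0.0834 between the runs in activated kidneys. Signal near background limits what can be said of Prelp and of 5 of the 6 Fmod probe sets. No paired analysis was possible because the titles carry no replicate numbers shared between the groups.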

Other observations

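The 3 Bgn probe sets gave unequal differences between the runs, which were not tested against each other. In wildtype kidneys the higher minus lower run difference was 1.17 on 1448323_a_at, 1.61 on 1416405_at and 2.16 on 1437889_x_at, and in activated kidneys it was 0.85, 0.80 and 1.09 on the same probe sets.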
